A study of Saccharomyces cerevisiae with 23 samples.

Results

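RPL15A, ATG18 and PAU13 are 3 of the 6002 nuclear protein-coding genes of budding yeast. They were chosen by their counts of insertion sites of the retrotransposon Ty1 in galactose, which were dense although the nearest tRNA gene lay more than 2 kb away. The regions counted were the RPL15A gene (YLR029C, chromosome XII, 201976 to 202590), a 1 kb window that holds the start of ATG18 (YFR021W, chromosome VI, 194001 to 195000) and a 1 kb window that holds the end of PAU13 (YHL046C, chromosome VIII, 11001 to 12000), all in the R64 (sacCer3) build. The nearest tRNA genes were YNCL0004C at 12293 bp from RPL15A, YNCF0009C at 2388 bp from the ATG18 window and YNCH0001W at 50755 bp from the PAU13 window. The nearest other RNA genes were SNR30 at 2587 bp from RPL15A and RUF22 at 4299 bp from the ATG18 window. Because galactose site counts chose these regions, those counts are given as a description and were not tested.

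The 2 Ty1 insertion libraries came from the haploid strain BY4741 (MATa his3delta1 leu2delta0 ura3delta0 met15delta0), which carried the plasmid pJEF2365 in both cases. One culture spent 24 h in 2% galactose, used here to switch on Ty1, and the other spent 24 h in 2% dextrose. Both had been precultured in 2% raffinose with 0.1% dextrose and were later grown in dextrose, at the end with 1 mg/mL 5-FOA, which kills cells that have a working URA3 gene. DNA was cut with MseI, joined to an adaptor, cut with BglII and amplified between the adaptor and a priming site named SSB, and fragments of 200 to 1000 bp were kept. The labels name both complete medium and medium without uracil for the 24 h step. Each library is a pool of cells and each medium had 1 library, so no difference between media has a replicate check. Intervals printed are exact 95% intervals (Poisson for counts, Clopper-Pearson for shares) and cover counting error only.

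Ty1 is a copia-type element with long terminal repeats that copies itself through RNA. Its integrase is guided to genes transcribed by RNA polymerase III, above all tRNA genes, through contact with that polymerase, and it joins the element to staggered cuts that leave a short direct repeat of 5 bases on both sides. RPL15A encodes a protein of the large ribosomal subunit, ATG18 encodes a phosphoinositide-binding protein of autophagy and of the vacuole, and PAU13 belongs to the PAU family, many of whose members lie near chromosome ends. All 3 are transcribed by RNA polymerase II.

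The galactose file held 152129 distinct nuclear sites and the dextrose file 11208. A site is a distinct chromosome, strand and 5′ end of an aligned interval. Beyond 2 kb of every tRNA gene the mean density was 6.29 sites per kb in galactose and 0.723 in dextrose. Read names in the 2 files carry the same run and lane.

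RPL15A had the densest sites of the 3. In galactose its 615 bp of coding sequence held 58 sites (95% interval 44.0 to 75.0), or 94.3 per kb, which is 15-fold the mean density beyond 2 kb of tRNA genes (95% interval 11.4 to 19.4). Among 5337 coding genes wholly beyond 2 kb of a tRNA gene, 2 genes, or 0.0375%, reached that density, RPL15A itself and URA3, which the genotype lists as deleted. The ATG18 window held 45 galactose sites (95% interval 32.8 to 60.2), a density 7.15-fold the same mean (95% interval 5.22 to 9.57). The PAU13 window held 40 (95% interval 28.6 to 54.5), 6.36-fold the mean (95% interval 4.54 to 8.66).

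Among the 10773 fixed 1 kb windows wholly beyond 2 kb of a tRNA gene, the median was 5 galactose sites. The window with most of RPL15A (chromosome XII, 202001 to 203000) had 62 sites and ranked 13th, with 0.121% of windows at or above its count. The ATG18 window ranked 14th, with 0.13% at or above, and the PAU13 window 16th, with 0.149% at or above. Just above the RPL15A window stood a window on chromosome III (291001 to 292000) with 65 sites and no annotated gene. Between the ATG18 and PAU13 windows stood one that overlaps TIM9 and RPR1 (chromosome V, 117001 to 118000) with 41 sites. Just below PAU13 were the windows of PUG1 (chromosome V, 560001 to 561000) and of REX3 (chromosome XII, 364001 to 365000), with 37 sites each. When windows were ranked by sites with a full-length interval of 96 bases, RPL15A (30 sites) ranked 12th, with 0.111% of windows at or above its count, and ATG18 (28) ranked 13th, with 0.121%. PAU13 (14) ranked 61st, with 0.687%. The 16 windows with at least 40 sites also include windows with RPR1, SNR52, SNR6 and RDN5-1, RNA genes that are transcribed by RNA polymerase III. None of these genes lay in the 3 regions, and SNR6, on chromosome XII, was 163645 bp from RPL15A.

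**Figure D1:**
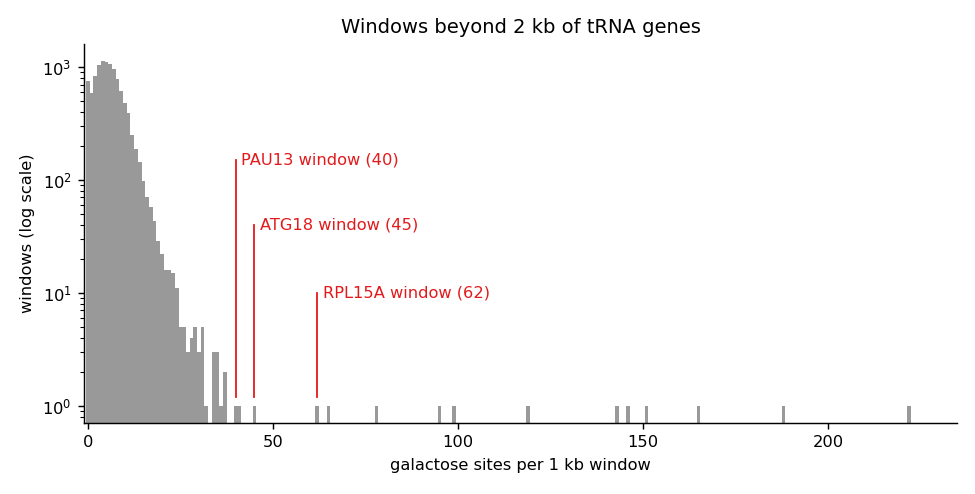
Number of fixed 1 kb windows beyond 2 kb of a tRNA gene (vertical axis, log scale) by galactose sites per window (horizontal axis). The PAU13, ATG18 and RPL15A windows, with 40, 45 and 62 sites, lie to the right of the bulk around a median of 5; 1 window of the ribosomal DNA with 401 sites lies beyond the axis.

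The dense sites were in the coding sequence at RPL15A, but beside it at the other two. The ATG18 gene itself (chromosome VI, 194812 to 196314) held 4 sites, or 2.66 per kb, 0.423 of the mean density. Of the 45 sites of its window, all but 1 lay outside ATG18, in the gap before it. The gap between CSS2 and ATG18, which point the same way, held 65 sites in 1376 bp. Of these, 24 were on the plus strand and 41 on the minus strand. The window's sites lay 26 to 796 bp from the start of ATG18, with a median of 614 bp, and at a median of 763 bp from the end of CSS2. PAU13 itself (chromosome VIII, 11923 to 12285) held 1 site, against 49 in the 1709 bp between it and ARN2, which encodes a siderophore transporter. PAU13 and ARN2 are both on the minus strand, and the window thus lies downstream of PAU13 and upstream of ARN2. Its sites had a median distance of 221 bp from the end of PAU13 and of 1489 bp from the start of ARN2. The names ATG18 and PAU13 therefore mark gaps beside these genes, where nearly all the counted sites lay. Reads within PAU genes can be hard to place, so the low count inside PAU13 is uncertain.

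Neighbouring genes held fewer sites than the regions counted. ADE16, an enzyme of purine synthesis that lies on the stop side of RPL15A, held 8 galactose sites in 1776 bp, 0.716 of the mean density. The 660 bp between ADE16 and RPL15A held 10 sites and the 699 bp between RPL15A and the divergent YLR030W held 9, densities 2.41-fold and 2.05-fold the mean. YLR030W held 1 site. CSS2, the gene before ATG18, held 14 sites, 3.18-fold the mean density, 12 of them on the plus strand. All of CSS2 lies within 2 kb of the tRNA gene YNCF0009C, so that mean, taken beyond 2 kb, is not a like comparison. ARN2 held 7 sites in 1863 bp. The gap of 216 bp between PAU13 and PXP3 held 2 sites and PXP3 held 2, while the next gap, of 715 bp before DFP4, held 12, or 2.67-fold the mean density.

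At RPL15A the sites crowded toward the stop codon, which is the low-coordinate end because the gene is on the minus strand. Of the 58 sites, 24 lay within 100 bp of that end and 35 within 200 bp, against 11 and 14 within the same distances of the start. The densest 50 bp of its 3 kb map, positions 202001 to 202050, held 15 sites, all on the plus strand and 10 of them with a 96-base interval. The next 50 bp held 7 sites and positions 202151 to 202200 held 6. The densest 300 bp (201951 to 202250) held 40 sites. Among these, 35 were on the plus strand and 5 on the minus strand. None of the 40 had a mapping score below 60, the highest score. The RPL15A sites below that score lay from 202280 to 202519, on the start side of that stretch. Whether reads that matched the paralog RPL15B equally are missing from that side was not tested.

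Over the whole gene, 43 of the 58 sites (74.1%, 95% interval 61.0 to 84.7) were on the plus strand, against 49.97% of galactose sites beyond 2 kb of tRNA genes. That interval treats each site as independent and does not allow for neighbouring sites on the same strand. Uneven strand shares were not particular to RPL15A among windows of like density. Over the 16 windows with at least 40 galactose sites, the plus-strand share had a median of 44.3%. It ran from 32.98% in a window with GAL10 to 66.9% in the SNR52 window. The window with most of RPL15A (66.1%) ranked 2nd. In a read that starts at the element the strand follows the element's orientation, but which strand stands for which orientation is not given in the sources used here. The part of the gene nearer the stop codon, 201976 to 202283, had 35 plus-strand and 6 minus-strand sites, and the part nearer the start codon, 202284 to 202590, had 8 plus-strand and 9 minus-strand sites. Many of the plus-strand sites were neighbouring bases, such as 202044, 202045, 202046 and 202047. At RPL15A, 45 of 58 sites (77.6%, 95% interval 64.7 to 87.5) had another site on the same strand within 5 bases, against 20 of 45 in the ATG18 window (44.4%), 16 of 40 in the PAU13 window and 37.4% beyond 2 kb of tRNA genes. Within 1 kb of tRNA genes the share was 83.5%. Over the same 16 windows the median was 73.7%. Among them the windows of RPL15A (74.2%), ATG18 (44.4%) and PAU13 (40%) ranked 8th, 14th and 16th. Denser regions have more such neighbours by number alone. When same-strand sites within 5 bases were merged, RPL15A kept 28 sites, the density was 9.22-fold the mean merged in the same way and 60.7% were on the plus strand. That share lay below the interval for unmerged sites, and no interval was computed for it. Whether the neighbouring positions are separate insertions or one insertion read at slightly different ends was not tested.

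The ATG18 window had its densest 50 bp at 194051 to 194100, with 8 sites, of which 7 were on the minus strand, all with a 96-base interval. The 50 bp just before, 194001 to 194050, held 4 sites, all on the plus strand and with a 96-base interval. Its densest 300 bp (193901 to 194200) held 30 sites, 14 on the plus strand and 16 on the minus strand, and began 100 bp before the window. A second group at 194501 to 194550 held 6 sites. In the window, 18 of 45 sites were on the plus strand (40%, 95% interval 25.7 to 55.7). That interval includes the 49.97% of sites beyond 2 kb of tRNA genes.

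The PAU13 window had 2 groups. Positions 11201 to 11250 held 9 sites, none of which had a 96-base interval, while 11751 to 11800 held 9 and 11801 to 11850 held 6, of which 5 and 4 had one. The stretch of 11751 to 11850 had 5 plus-strand and 10 minus-strand sites, and all 9 sites with a 96-base interval in it were on the minus strand. Over the window, 18 of 40 sites were on the plus strand (45.0%, 95% interval 29.3 to 61.5). Among the 14 with a 96-base interval, 3 were on the plus strand (21.4%, 95% interval 4.66 to 50.8). Strand and interval length were not independent here. The intervals of 5 plus-strand sites from 11749 to 11781 all ended at 11827, short of 96 bases.

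**Figure D2:**
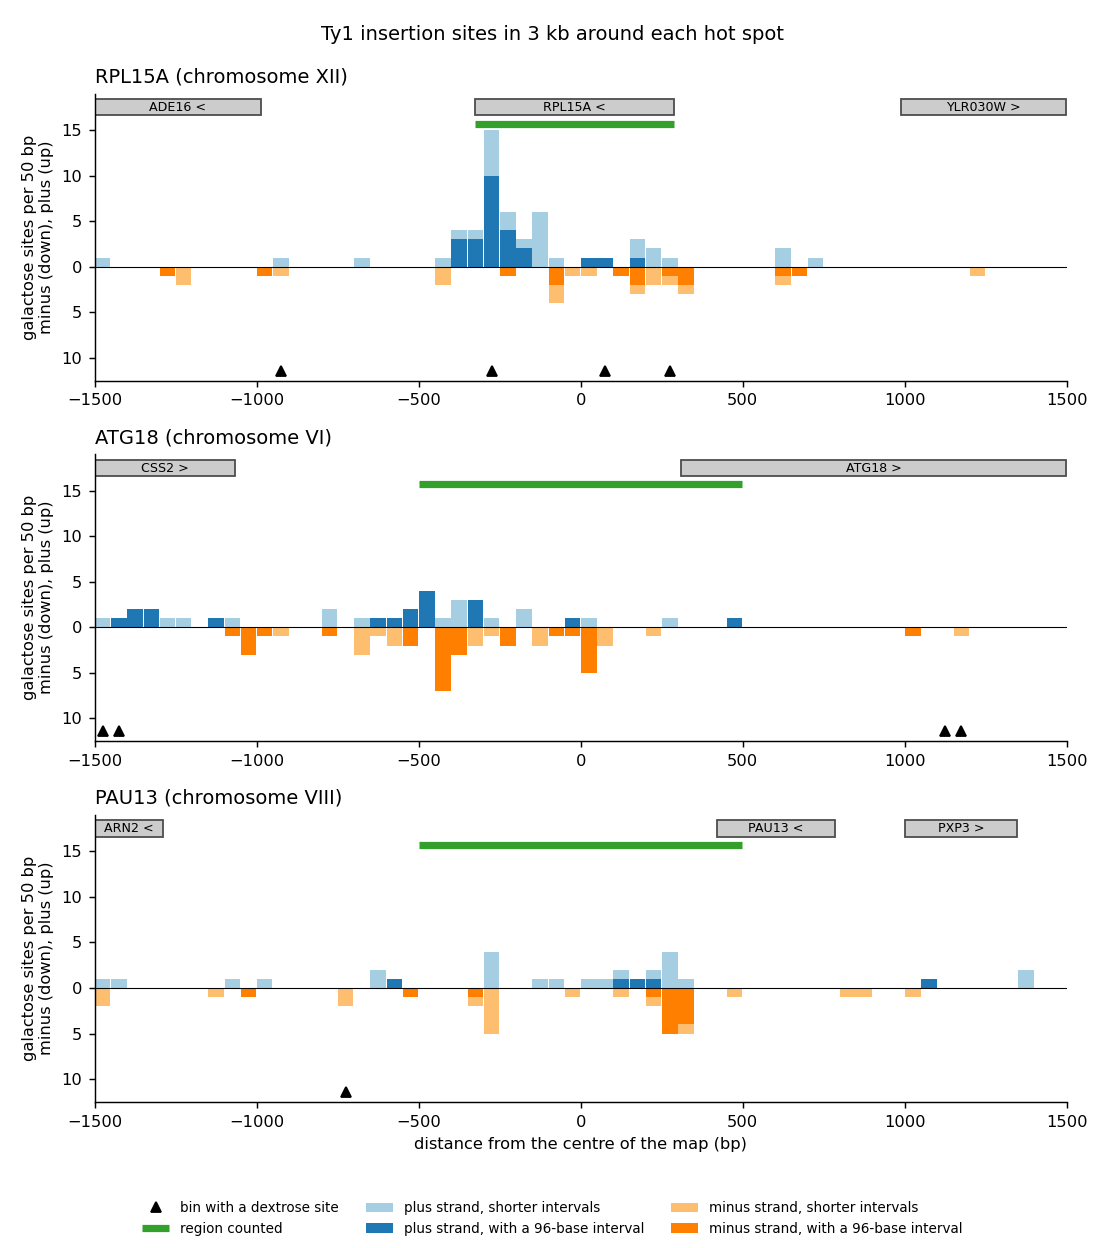
Galactose sites per 50 bp over 3 kb around each region (horizontal axis, distance from the map centre in bp), plus-strand sites upward and minus-strand sites downward, darker where the site has a 96-base interval; triangles mark bins with a dextrose site and grey boxes the genes, with > or < for direction. The 15 plus-strand sites in 1 bin stand out in RPL15A, and the sites at ATG18 and PAU13 lie beside the gene boxes.

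The share of long aligned intervals at RPL15A and ATG18 was above the mean of regions far from tRNA genes. Among the 16 windows with at least 40 galactose sites, ATG18 was near the median and RPL15A below it. Full-length intervals of 96 bases made up 29 of 61 galactose intervals at RPL15A (47.5%, 95% interval 34.6 to 60.7) and 28 of 49 at ATG18 (57.1%, 95% interval 42.2 to 71.2), against 27.9% (95% interval 27.6 to 28.2) beyond 2 kb of tRNA genes. At PAU13 the share was 14 of 42 (33.3%, 95% interval 19.6 to 49.5), an interval that includes that level. Within 1 kb of tRNA genes the share was 60.7%. Over the 16 windows with at least 40 galactose sites the median share was 56.6%, and the windows of ATG18 (57.1%), RPL15A (44.8%) and PAU13 (33.3%) ranked 8th, 11th and 13th. Counted by sites with a 96-base interval alone, RPL15A had 21.7-fold (95% interval 14.5 to 31.1), ATG18 12.9-fold (95% interval 8.55 to 18.6) and PAU13 6.43-fold (95% interval 3.52 to 10.8) the mean density of such sites beyond 2 kb of tRNA genes. Sites with shorter intervals only were 11.5-fold, 4.13-fold and 6.32-fold their own mean. Both kinds of site are parts of the count that chose the regions, so these folds are a description.

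**Figure D3:**
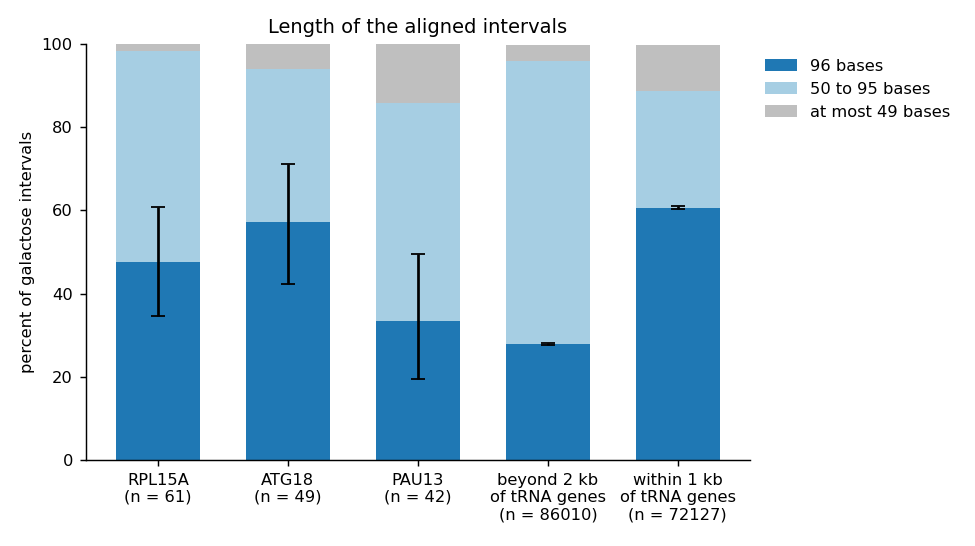
Percent of galactose intervals of 96, 50 to 95 and at most 49 bases at RPL15A, ATG18 and PAU13, and in the sets beyond 2 kb and within 1 kb of tRNA genes; bars on the lowest segment are Clopper-Pearson 95% intervals of the 96-base share. The 96-base share is 47.5% at RPL15A, 57.1% at ATG18 and 33.3% at PAU13, against 27.9% beyond 2 kb of tRNA genes.

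Sites with more than 1 interval numbered 3 of 58 at RPL15A (5.17%), 3 of 45 at ATG18 (6.67%) and 2 of 40 at PAU13, against 15.4% of sites beyond 2 kb of tRNA genes. Within 1 kb of tRNA genes the share was 1.02%. Over the 16 windows with at least 40 galactose sites the median share was 2.38%. Among them the windows of ATG18 (6.67%), RPL15A (6.45%) and PAU13 (5%) ranked 2nd, 3rd and 5th.

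Shorter intervals often stopped at the same base. In RPL15A, 6 plus-strand sites from 202157 to 202171 had intervals of 56 to 70 bases that all ended at 202226. In the ATG18 window, 4 plus-strand sites from 194075 to 194129 ended at 194160, with intervals of 32 to 86 bases. In the PAU13 window, 5 plus-strand sites from 11749 to 11781 ended at 11827, and 4 minus-strand sites from 11201 to 11237 ended at 11157. The DNA was cut with MseI before the adaptor was added, per the labels' protocols, and whether these ends are MseI sites was not tested, since no genome sequence was used here.

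Of the intervals under 96 bases, 8 of 32 at RPL15A (25%, 95% interval 11.5 to 43.4), 6 of 21 at ATG18 (28.6%, 95% interval 11.3 to 52.2) and 13 of 28 at PAU13 (46.4%, 95% interval 27.5 to 66.1) ended where an interval from another site of the same strand also ended. Beyond 2 kb of tRNA genes that share was 3.99%, and within 1 kb of them it was 78.4%. A dense region has more sites to share an end with. Of the 16 windows with at least 40 galactose sites, the windows of RPL15A (27.0%), ATG18 (28.6%) and PAU13 (46.4%) had the 3 lowest shares, with a median of 67.6% over the 16, and were among the 4 windows with the fewest sites. The fourth of these, with TIM9 and RPR1 (41 sites), had a share of 76.5%.

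**Figure D4:**
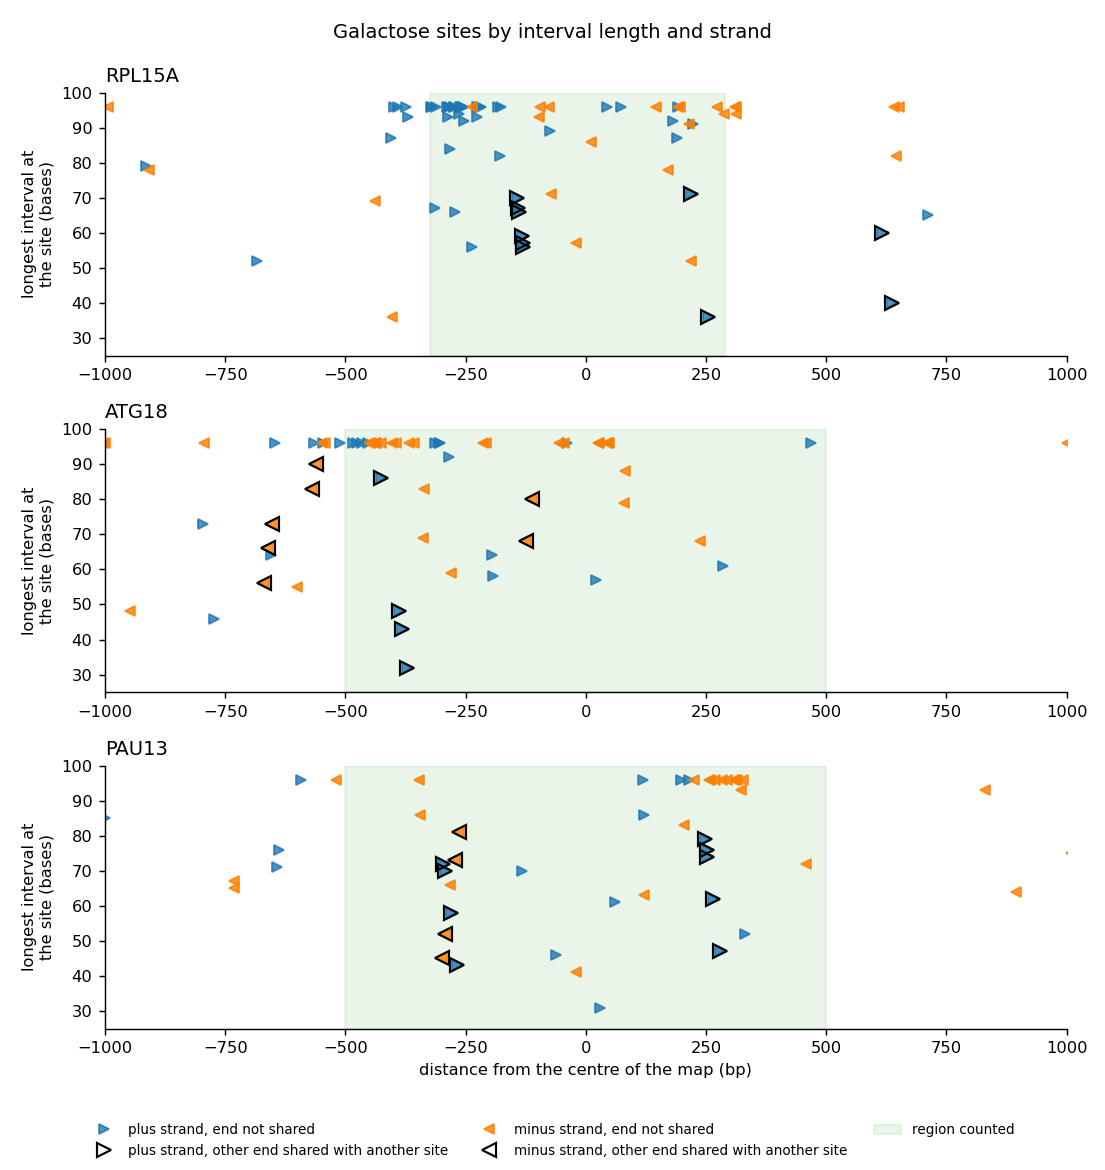
Each galactose site by distance from the map centre (bp) and the longest interval at the site (bases), with right-pointing markers for the plus strand and left-pointing markers for the minus strand; outlined markers have an end shared with another site, and shading is the region counted. Slanted runs of outlined markers are sites whose intervals stop at 1 base, with 6 such sites in RPL15A and 5 in the right group of PAU13.

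Opposite-strand sites whose 5′ ends enclose 5 bases, the length of the repeat that Ty1 leaves, have the arrangement left by 1 target position that was used in both orientations. RPL15A had 1 such pair (202492 to 202496), with a 96-base interval on both strands. The ATG18 window had 3, at 194047 to 194051, 194129 to 194133 and 194522 to 194526. The PAU13 window had 5, at 11204 to 11208, 11233 to 11237, 11754 to 11758, 11766 to 11770 and 11781 to 11785. In 3 of the PAU13 pairs the minus-strand site had a 96-base interval and the plus-strand site a shorter one that ended at 11827. In the others neither site had a 96-base interval.

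Summed over the 3 regions, there were 9 pairs that enclose 5 bases, against 0 to 4 pairs for each other distance from 1 to 15 bases. RPL15A did not share that peak, with 1 pair at 5 bases and 2 pairs each at 2 and at 4 bases. ATG18 had 3 pairs at 5 bases and at most 1 at any other distance, and PAU13 had 5 and at most 3. Among sites with a 96-base interval in the 3 regions, 2 pairs enclosed 5 bases, against 1 each at 2, 9 and 12 bases. Paired sites made up 2 of 58 at RPL15A (3.45%, 95% interval 0.420 to 11.9), 6 of 45 at ATG18 (13.3%, 95% interval 5.05 to 26.8) and 10 of 40 at PAU13 (25%, 95% interval 12.7 to 41.2), against 8.69% beyond 2 kb of tRNA genes and 42.9% within 1 kb of them. Paired sites are not independent of each other, which these intervals do not allow for, and a dense region has more pairs at any distance: at PAU13, 3 pairs enclosed 9 bases. Over the 16 windows with at least 40 galactose sites, the median paired share was 27.1%, and the windows of PAU13, ATG18 and RPL15A ranked 10th, 14th and 15th. Of the 3 regions, RPL15A had the most sites, the fewest pairs and the sites most one-sided in strand. Beyond 2 kb of tRNA genes, pairs that enclose 4 bases (2404) and 6 bases (1773) were also frequent beside the 3013 that enclose 5. Among sites with a 96-base interval there, 600 pairs enclosed 5 bases, against 144 for 4 bases and 111 for 6 bases.

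**Figure D5:**
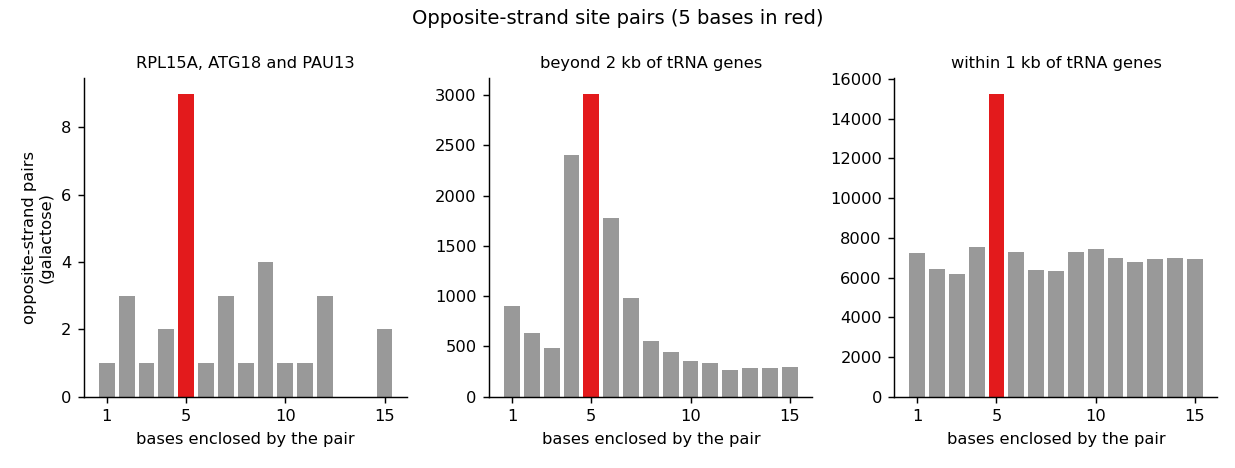
Opposite-strand site pairs in galactose (vertical axis, a separate scale per panel) by the number of bases they enclose, from 1 to 15, for the 3 regions together, beyond 2 kb of tRNA genes and within 1 kb of them. The bar for 5 bases is the highest in each panel, with 9, 3013 and 15266 pairs.

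The dextrose library was not used to choose the regions. RPL15A held 4 dextrose sites (95% interval 1.09 to 10.2), where the mean density beyond 2 kb of tRNA genes gives 0.445, so that the density was 8.99-fold that mean (95% interval 2.45 to 23.0). They lay at 202006, 202044 and 202353 on the plus strand and at 202589 on the minus strand. At 3 of them the interval had 96 bases, and at 202353 it had 93. Those at 202006 and 202044 fell in the 50 bp that were densest in galactose. The sites at 202044 and 202589 were also present in galactose at the same base and strand, as were 47.2% of all dextrose sites beyond 2 kb of tRNA genes. Without shared positions 2 sites remained, 8.52-fold the mean density computed in the same way. With only 2 sites and no interval computed, that fold is very uncertain. As a share of all sites of its library, RPL15A held 0.0381% in galactose (95% interval 0.0290 to 0.0493) and 0.0357% in dextrose (95% interval 0.00972 to 0.0914).

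The ATG18 and PAU13 windows held 0 dextrose sites each. With 3 counts as the limit that a count of 0 allows, they could hold up to 0.0268% of the dextrose library (0.0329% by the exact upper bound of 3.69 sites), while the windows held 0.0296% and 0.0263% of the galactose library. A lower share in dextrose was therefore not detectable at this depth, since both limits lay above the PAU13 share in galactose and inside the interval of the ATG18 share (0.0216 to 0.0396%). Of the 10773 windows, 5649, or 52.4%, had no dextrose site. In the 3 kb map of ATG18, 4 dextrose sites fell in the coding sequences at its edges, 2 in CSS2 and 2 in ATG18. In the map of PAU13, 1 fell between ARN2 and PAU13.

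Genes related to the 3 by family were set beside them. RPL15B (YMR121C, chromosome XIII), the paralog that encodes nearly the same ribosomal protein as RPL15A, held 3 galactose sites in a coding sequence of the same length, 4.88 per kb, and 0 in dextrose. In RPL15A 5 of the 58 sites had a mapping score below 60, which can arise where another sequence is similar, and reads that matched both paralogs equally would be missing from both. Of the 76 genes of large-subunit proteins named RPL, 74 were wholly beyond 2 kb of a tRNA gene. Their median was 4.71 galactose sites per kb, against 5.11 over all 5337 such coding genes. The next RPL genes by sites were RPL3 with 25 and RPL5 with 13. ATG18 belongs to a family of 3 phosphoinositide-binding proteins, of which ATG21 and HSV2 held 10 sites each. Among 40 autophagy genes the most sites were in ATG31 (74), which lies within 2 kb of a tRNA gene, ATG2 (27) and VPS15 (19). These counts do not allow for length: ATG2 and VPS15 span 4779 and 4365 bp and had 5.65 and 4.35 sites per kb. The 38 autophagy genes beyond 2 kb had a median of 5.68 sites per kb.

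Of the 24 PAU genes, 9 held a galactose site, against 5562 of all 6002 coding genes. Beyond 2 kb of a tRNA gene, 14 of 21 PAU genes had none, against 396 of all 5337 coding genes. PAU genes are 129 to 495 bp long, and at the same density a shorter gene more often has no site. Gene length was not matched in these 2 comparisons, so they are not like for like. Over all 24 PAU genes, PAU17 had 7 sites, PAU2 had 5, and PAU5 and PAU20 had 4 each. PAU2 and PAU5 are not wholly beyond 2 kb of a tRNA gene. PAU genes resemble one another closely, so reads within them can be hard to place, and their low counts are uncertain. In the PAU13 window, 2 of the 40 sites had a score below 60, at 11833 and, inside PAU13, at 11958.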

How the data were processed

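Of the 23 samples, 21 MNase-seq samples are not analysed here. The submitters' processing notes name Picard 3.4.0, bedtools 2.31.1, SAMtools 1.22, BWA 0.7.19 and Trimmomatic 0.39, and R64 (sacCer3), without settings. The authors deposited aligned intervals with strand and a mapping score of 30 to 60, and the deposited files' names say that duplicates were removed, so the counts are of positions, not of cells or reads. PCR reads without molecular tags are not independent molecules. Nuclear intervals numbered 170398 in galactose and 11531 in dextrose, on 16 chromosomes. Coordinates are 1-based. Genes, with strand read from systematic names, came from the RefSeq table of the same build (275 tRNA genes). Positions beyond 2 kb of tRNA genes numbered 11024453, each chromosome ending at the last annotated or aligned base. The members and lists were chosen with earlier results of these data known. The named genes were the members, genes in their maps, nearest tRNA genes, listed relatives, the 3 highest genes of each list and neighbouring windows by rank; URA3, the other RNA genes, PAU20, shared ends and single sites were named after their values were seen. With 1 library per medium there was no test. Counting steps were tested on simulated data. Python 3.11.15, pandas 2.3.3 and SciPy 1.17.1 were used. The alternatives were the mapping score, interval end and length, merging, intervals per site, window, pair distance and comparison set.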

Additional observations from a re-analysis of the deposited data

How the results depend on the processing

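No paired analysis was possible because each medium has 1 library and no test was made. Of 130 values recomputed under other settings, 81 stayed within 1.5 times the reported count or within the 95% interval of the reported value, 46 moved beyond that and 3 changed direction, and the cause of each was not tested unless the setting itself gives it. With gene bodies in place of the windows, the galactose density changed direction to 0.423-fold at ATG18 (4 sites, 2 dextrose sites, 0% paired) and to 0.438-fold at PAU13 (1 site, 0% paired, 0% plus strand), and a 1 kb window gave 10.8-fold at RPL15A. Against the whole library, the share of 96-base intervals was 10.2 percentage points lower at PAU13 (-10.2) and 3.96 and 13.6 points higher at RPL15A and ATG18. With 96-base intervals alone there were 29, 28 and 14 sites at RPL15A, ATG18 and PAU13, densities of 21.7-fold and 12.9-fold at RPL15A and ATG18, and at PAU13 21.4% on the plus strand and 0% paired. With shorter intervals alone there were 31, 17 and 26 sites, 4.04-fold at ATG18 and 1 dextrose site at RPL15A. With at least 2 intervals per site, 3, 3 and 2 sites remained (5.04-fold, 3.10-fold and 2.07-fold), and 0 in dextrose at RPL15A. Merging left RPL15A with 28 sites, 9.22-fold, 60.7% on the plus strand and 0% paired, and the highest mapping score alone also left 0% paired there. The 3′ end gave 4.44-fold at PAU13. Without positions shared with galactose, RPL15A had 2 dextrose sites. Pairs that enclose 3, 4, 6 and 7 bases numbered 0, 2, 0 and 1 at RPL15A, 0, 0, 1 and 0 at ATG18, and 1, 0, 0 and 2 at PAU13. The settings without intervals of 54 to 56 or 78 to 80 bases and without shared positions were chosen after seeing the data. At 4, 0 and 0 dextrose sites, differences between media at these regions were limited by depth.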

Other observations

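Intervals of 54 to 56 or 78 to 80 bases were frequent in dextrose far from tRNA genes. In galactose they made up 4.92% of the intervals at RPL15A (95% interval 1.03 to 13.7), 6.12% at ATG18 (95% interval 1.28 to 16.9) and 4.76% at PAU13 (95% interval 0.582 to 16.2), against 12.5% beyond 2 kb of tRNA genes and 4.13% within 1 kb of them. All 3 intervals include the level beyond 2 kb. In dextrose they made up 56.2% of the intervals beyond 2 kb and 9.05% within 1 kb. None of the 4 dextrose intervals at RPL15A had these lengths, whereas 4 of the 5 in the ATG18 map and the single one in the PAU13 map did.

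The most frequent distance of opposite-strand dextrose pairs also differed by place. Beyond 2 kb of tRNA genes 226 dextrose pairs enclosed 6 bases and 42 enclosed 5, and within 1 kb 27 enclosed 6 bases and 122 enclosed 5. No opposite-strand pair that encloses 1 to 15 bases was present among the 4 dextrose sites of the 3 regions.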
